A study of Mus musculus with 18 samples.

Results

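The genes described here are 10 transcription factor genes known from fat cell formation: the C/EBP genes Cebpa, Cebpb, Cebpd and Cebpg, the Krüppel-like factor genes Klf4 and Klf15, the early B cell factor genes Ebf1, Ebf2 and Ebf3, and the zinc finger gene Zfp423. They were chosen by name: every probe whose gene name on the array is 1 of these 10 was taken, which gave 18 probes of 41174. All 10 genes passed the filter on dim probes and are part of the 19217 genes tested. RNA was measured on 18 one-colour arrays from young adult male C57BL/6 mice with no other genotype or treatment given, in biological triplicates. Fat was digested with collagenase and spun, the floating layer was taken as the adipocyte fraction and the pellet as the stromal-vascular fraction (SVF), whose red cells were lysed. The 6 groups are brown (interscapular) adipocytes and brown SVF, inguinal adipocytes and inguinal SVF, and epididymal adipocytes and epididymal SVF, with 3 arrays each. The adipocyte fraction is a layer that floats and the SVF a mixture of cells, so neither is a sorted cell type.

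Fat cells arise from fibroblast-like progenitors through a cascade of transcription factors. In cultured mouse preadipocytes Cebpb and Cebpd are induced within hours of the differentiation signal, Klf4 acts upstream of Cebpb, and Cebpb and Cebpd then switch on Cebpa and the nuclear receptor gene Pparg, which hold each other active in the mature cell. Ebf1 and Ebf2 also activate Cebpa and Pparg, with Ebf2 known for selecting brown fat genes. Zfp423 marks committed preadipocytes and restrains the brown program in white fat. Klf15 responds to glucocorticoids and raises enzymes of amino acid and lipid use.

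The signal was measured by 60-base probes, and the sequences below are probes in coding sequence of members with more than 1 probe. The Zfp423 probe is the brightest of its gene, the kind of probe from which levels and differences were taken. Those of Cebpa, Cebpb, Cebpg and Klf15 are dimmer probes, whose results are given only where the coding probe is named. Coordinates are those of the array's design file on mouse build mm8. The Cebpa, Cebpb and Cebpg probes lie in the part coding for the leucine zipper, through which these proteins pair, and the Klf15 probe in the part coding for zinc fingers that bind DNA. The coordinates of the Zfp423 probe span 6607 bases, so it crosses a splice junction.
Cebpa coding probe (chr7:34829102-34829161, + strand): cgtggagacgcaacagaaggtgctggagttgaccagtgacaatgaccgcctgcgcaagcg
Cebpb coding probe (chr2:167381014-167381073, + strand): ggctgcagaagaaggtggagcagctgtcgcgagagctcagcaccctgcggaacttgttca
Cebpg coding probe (chr7:34759218-34759277, - strand): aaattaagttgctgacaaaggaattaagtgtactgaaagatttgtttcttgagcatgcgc
Klf15 coding probe (chr6:90439701-90439760, + strand): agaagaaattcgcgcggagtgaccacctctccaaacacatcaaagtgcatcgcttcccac
Zfp423 coding probe, split by an intron on the genome (chr8:90663728-90670334, - strand): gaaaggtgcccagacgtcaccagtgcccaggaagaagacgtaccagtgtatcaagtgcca

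The promoters of Cebpa, Cebpb and Klf15, the 3 members whose group means spanned the most (4.08, 2.03 and 2.24 log2 units between the highest and lowest of the 6 groups), are printed next, from 250 bases before to 50 bases after the RefSeq start (build GRCm38.p6). 8 of the 10 members had an entry. Capitals mark exact matches, on either strand, to the C/EBP core TTGCG, the CCAAT box, the CREB core TGACG, the E-box CACGTG and the TATA box TATAAA.
Cebpa promoter (chr7:35119043-35119342, + strand): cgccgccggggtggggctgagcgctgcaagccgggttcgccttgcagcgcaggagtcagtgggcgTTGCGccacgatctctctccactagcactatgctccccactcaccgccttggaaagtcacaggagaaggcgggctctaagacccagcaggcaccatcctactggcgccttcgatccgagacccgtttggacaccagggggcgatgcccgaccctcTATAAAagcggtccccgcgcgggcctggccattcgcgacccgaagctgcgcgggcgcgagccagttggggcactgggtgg
Cebpb promoter (chr2:167688665-167688964, + strand): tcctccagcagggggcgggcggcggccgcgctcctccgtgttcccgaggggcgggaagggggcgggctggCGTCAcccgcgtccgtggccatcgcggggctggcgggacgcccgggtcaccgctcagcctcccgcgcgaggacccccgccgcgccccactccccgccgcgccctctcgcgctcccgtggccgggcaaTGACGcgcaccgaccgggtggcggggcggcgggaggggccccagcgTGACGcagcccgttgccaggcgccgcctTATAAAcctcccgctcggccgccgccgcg
Klf15 promoter (chr6:90462326-90462625, + strand): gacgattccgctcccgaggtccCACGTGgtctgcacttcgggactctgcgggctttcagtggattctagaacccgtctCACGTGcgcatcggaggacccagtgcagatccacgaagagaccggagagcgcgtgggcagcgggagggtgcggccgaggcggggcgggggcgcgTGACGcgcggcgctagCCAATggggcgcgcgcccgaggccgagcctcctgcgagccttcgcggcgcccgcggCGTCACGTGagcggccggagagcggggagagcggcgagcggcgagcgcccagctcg

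The C/EBP core TTGCG stands in the Cebpa promoter, with its first base at -185 where the start site is 0, and TATAAA at -30. The share of all 32851 promoters in the table with a TTGCG on either strand is 17.4%, and with TATAAA 13.6%. The Cebpb promoter holds the CREB core TGACG at -180 (as CGTCA), -53 and -7 and a TATAAA at 21, past the start, and 20.8% of all promoters hold at least 1. The Klf15 promoter holds CACGTG at -228, -172 and -3, the last overlapping a CGTCA at -6, with CACGTG in 7.15% of all promoters, and it also has TGACG at -78 and CCAAT at -62 (CCAAT is in 37.4% of all). None of these 5 motifs is in the 3 promoters' windows beyond the capitals shown, and a match describes letters and not a bound factor.

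Levels are log2 of the array's processed signal minus log2 of that array's 75th percentile, and differences are adipocyte minus SVF, or the first depot minus the second, on that log2 scale. The fat hormone gene Adipoq had levels from 7.41 to 8.79 on the 9 adipocyte arrays and from 0.66 to 7.16 on the 9 SVF arrays, so the fractions did not overlap, but 1 SVF array, brown SVF replicate 2, lay close to the adipocytes. The thermogenic gene Ucp1 had 7.24 to 8.11 in brown adipocytes and 3.64 to 4.50 in brown SVF, 1.99 to 4.34 in inguinal adipocytes, and -3.35, -1.05 and 4.50 in epididymal adipocytes, where replicate 3 stood apart. The library labelled inguinal SVF replicate 1 had the Y-linked gene Ddx3y at -6.49, not well above background, against 0.18 to 1.65 on the other 17 arrays, which goes against its label of male, and its summed mesothelial markers reached 7.09 against -0.45 and -0.07 on the other inguinal SVF arrays. In inguinal SVF replicate 3 the B cell markers summed to 7.06 and 9 of the 10 members had their lowest value of all 18 arrays, Ebf1 being the exception. Calls of the members that were lost or gained without 1 of these libraries in the groups compared are given with and without it. Counts over related genes between fractions are given without each of them below where the counts changed. The spots well above background made up 49.6% to 72.3% on 17 arrays and 87.9% on epididymal adipocyte replicate 1. The file headers show image software 9.5.3.1 for the 6 arrays of inguinal and epididymal adipocytes and 10.5.1.1 for the other 12, on other slides and scan days. So in inguinal and epididymal fat the fraction difference, and between brown and white adipocytes the depot difference, cannot be told apart from software, slide and scan day. Inguinal and epididymal adipocytes had the same software but shared no slide or scan day, so their difference cannot be told apart from these either. Tests of whether the fraction difference differs between depots use these arrays and have the same limit. In bulk RNA fewer cells of a type and less RNA per cell cannot be told apart.

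**Figure D1:**
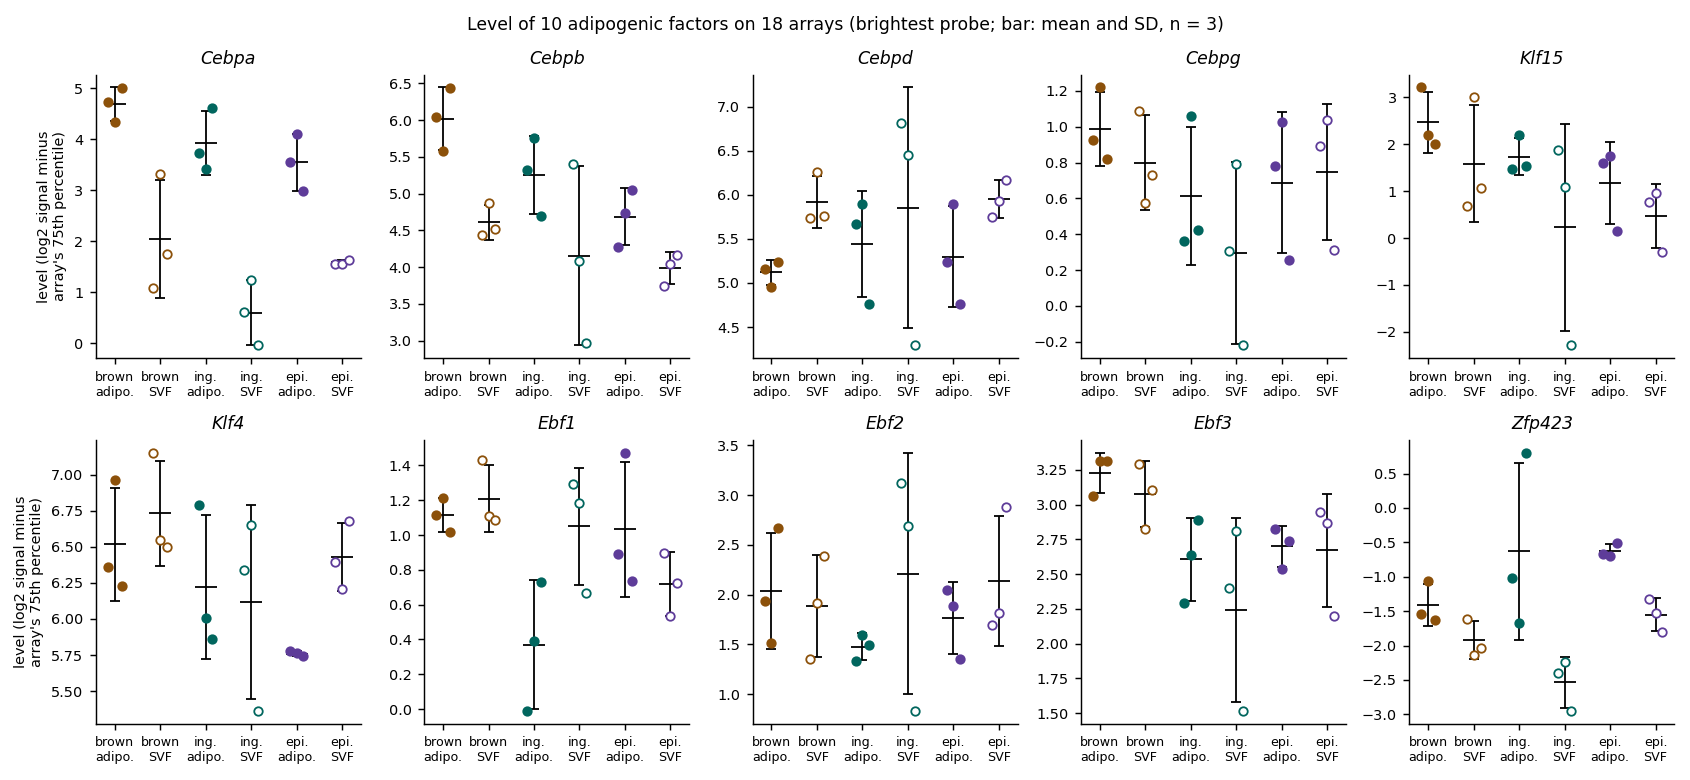
Level of each of the 10 genes on every array (log2 processed signal minus the array's 75th percentile, brightest probe), with adipocyte groups as filled and SVF groups as open points and bars for the mean and SD of 3 arrays. Cebpa lies higher in the adipocytes of each depot than in its SVF without overlap, while Cebpg, Ebf2 and Ebf3 overlap between the fractions in every depot, and inguinal SVF replicate 3 is the lowest of all points in 9 of the 10 panels.

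Cebpa, the C/EBP that keeps the mature fat cell's program running, was higher in the adipocytes of all 3 depots. In brown fat it had levels of 4.72, 4.34 and 4.99 in adipocytes, against 1.08, 3.32 and 1.74 in SVF. In inguinal fat it had 3.73, 3.42 and 4.62 in adipocytes, against 0.61, 1.24 and -0.04 in SVF. In epididymal fat it had 3.55, 4.10 and 2.99 in adipocytes, against 1.57, 1.56 and 1.64 in SVF. Every adipocyte array lay above every SVF array of its depot. Of all genes 47.1%, 26.8% and 49.3% did not overlap between the fractions in brown, inguinal and epididymal fat. Of the 10 members 3, 2 and 4 did not, no more than those shares. The SVF array with Cebpa nearest to the adipocytes was brown SVF replicate 2, the array on which Adipoq was high as well. The difference was 2.64 ± 0.50 in brown fat (SE, n = 3 per group, a 6.21-fold higher signal, limma adjusted p = 0.00193), 3.32 ± 0.50 in inguinal fat (9.96-fold, limma adjusted p = 0.00111) and 1.96 ± 0.50 in epididymal fat (3.89-fold, limma adjusted p = 0.0118). Cebpa passed in each depot under all 32 alternative settings, with differences of 2.15 to 3.27 in brown, 2.97 to 3.68 in inguinal and 1.68 to 2.24 in epididymal fat. Without brown SVF replicate 2 the brown difference was 3.27 (adjusted p = 0.000347), and without inguinal SVF replicate 1 the inguinal one was 3.32 (adjusted p = 0.0042). In brown fat, where slides carried both fractions, it was 3.25 on 1 slide (1 array each) and 2.33 on the other (2 arrays each). The coding probe of Cebpa shown above gave 2.84 ± 0.59 (adjusted p = 0.00393), 4.04 ± 0.59 (adjusted p = 0.000911) and 1.96 ± 0.59 (adjusted p = 0.0285) in brown, inguinal and epididymal fat.

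In these 3 fraction comparisons limma called, in either direction, 21.1% of all genes for brown fat, 13.9% for inguinal fat and 25% for epididymal fat. Of the 10 members 2 were called in brown (Cebpa and Cebpb), 2 in inguinal (Cebpa and Zfp423) and 1 in epididymal fat (Cebpa), all higher in adipocytes, which is 20%, 20% and 10% of the members and near or below those shares. At an unadjusted p under 0.05 the members numbered 2, 4 and 1. The median difference over the members was 0.17, 0.34 and 0.17, against 0.15, 0.01 and 0.06 over all genes tested, so in brown fat the whole array was shifted by about as much as the median member.

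**Figure D2:**
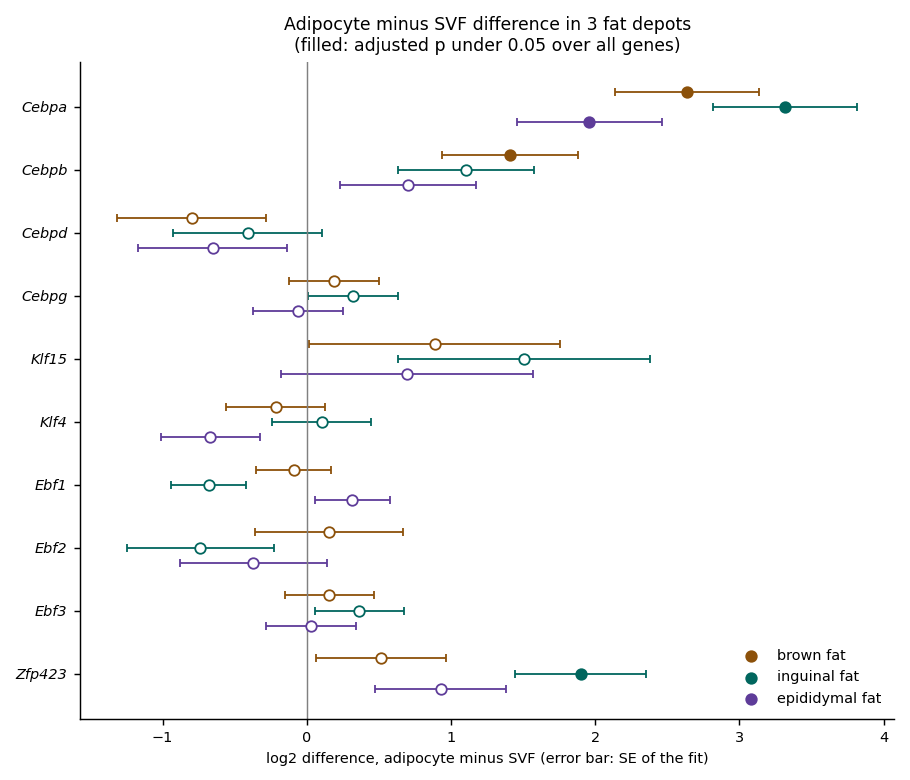
Difference in level between adipocytes and SVF (log2, adipocyte minus SVF, bars for the SE of the fit) for the 10 genes in brown, inguinal and epididymal fat, with filled points for an adjusted p under 0.05 over all 19217 genes. Cebpa is filled in all 3 depots, Cebpb in brown fat and Zfp423 in inguinal fat, and the points of Cebpd lie below 0 in each depot without being filled.

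Cebpb, an early C/EBP of differentiation that also responds to cAMP and inflammatory signals, had levels of 6.04, 5.58 and 6.43 in brown adipocytes, against 4.43, 4.87 and 4.52 in brown SVF. In inguinal fat it had 5.32, 5.75 and 4.70 in adipocytes, against 5.41, 4.08 and 2.97 in SVF. In epididymal fat it had 4.28, 4.74 and 5.04 in adipocytes, against 3.74, 4.04 and 4.17 in SVF. The fractions were apart in brown and epididymal fat and overlapped in inguinal fat, where the SVF arrays spanned more than the adipocyte arrays. The brown difference was 1.41 ± 0.47 (2.66-fold, limma adjusted p = 0.0446) and 1.91 and 1.16 within the slides that held both fractions. That call was lost under 20 of 32 alternatives, with adjusted p-values from 0.00968 to 0.333 over all of them, and quantile normalization lowered the difference to 0.71 (adjusted p = 0.333). Without brown SVF replicate 2 the brown difference was 1.54 ± 0.54 and did not pass (limma adjusted p = 0.0602). In inguinal fat the difference was 1.10 ± 0.47 (adjusted p = 0.131), and without inguinal SVF replicate 1, the library that goes against its label, 1.73 ± 0.39 (adjusted p = 0.0144). In epididymal fat it was 0.70 ± 0.47 (adjusted p = 0.293). The coding probe of Cebpb passed in inguinal fat (2.16 ± 0.49, adjusted p = 0.0101) and gave 1.24 ± 0.49 in brown (adjusted p = 0.0934) and 1.11 ± 0.49 in epididymal fat (adjusted p = 0.115), so the probe decided in which depot the test was passed. The summed level of 13 immediate early genes, which respond within minutes to cell stress and digestion, was 8.80 to 9.46 in brown, 8.99 to 9.38 in inguinal and 8.75 to 9.05 in epididymal adipocytes, against 8.68 to 9.15, 7.98 to 9.63 and 7.59 to 8.45 in the SVF of the same depots. Its part in the Cebpb values was not tested.

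Cebpd, the partner of Cebpb in early differentiation and an acute-phase factor, had 5.16, 4.95 and 5.24 in brown adipocytes, against 5.74, 6.26 and 5.76 in brown SVF. In inguinal fat it had 5.67, 5.90 and 4.76 in adipocytes, against 6.82, 6.46 and 4.29 in SVF. Epididymal adipocytes had 5.24, 5.90 and 4.76, against 5.75, 5.94 and 6.17 in SVF. The means lay lower in adipocytes in each depot, without overlap in brown fat, where the difference was -0.80 ± 0.52 (adjusted p = 0.315). It was -0.41 ± 0.52 in inguinal (adjusted p = 0.629) and -0.65 ± 0.52 in epididymal fat (adjusted p = 0.38), and none passed with all arrays. Inguinal SVF replicate 3 set the inguinal value: without it Cebpd fell by 1.19 ± 0.36 on the log2 scale (adjusted p = 0.0394), a call that rests on 2 SVF arrays, replicate 1, which goes against its label, and replicate 2. With the 6 brown arrays fitted alone the brown difference passed (adjusted p = 0.044).

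Cebpg, a widely expressed C/EBP that pairs with the others and lacks an activating part, stayed within 1.44 log2 units over all 18 arrays, from -0.22 to 1.22. It had 0.93, 1.22 and 0.82 in brown adipocytes, against 1.09, 0.58 and 0.73 in brown SVF. Its fractions overlapped in each depot, with differences of 0.19, 0.32 and -0.06, each ± 0.31 and with adjusted p-values of 0.724, 0.52 and 0.913. The coding probe of Cebpg passed in inguinal fat (1.18 ± 0.27, adjusted p = 0.0113), and the other probe gave -0.07 ± 0.44 there (adjusted p = 0.938), so the 3 probes of this gene disagreed.

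Klf15, the glucocorticoid-responsive factor, had 3.21, 2.19 and 2.00 in brown adipocytes, against 0.69, 3.00 and 1.07 in brown SVF. In inguinal fat it had 1.48, 2.20 and 1.53 in adipocytes, against 1.88, 1.10 and -2.29 in SVF. Epididymal adipocytes had 1.61, 1.76 and 0.16, against 0.77, 0.96 and -0.30 in SVF. The means were higher in the adipocytes of each depot and the fractions overlapped in each, the spread within groups (pooled SD 1.17) being the widest of the 10 members. The differences were 0.89, 1.51 and 0.70, each ± 0.87, in brown, inguinal and epididymal fat, with adjusted p-values of 0.528, 0.262 and 0.597. Without brown SVF replicate 2 the brown difference was 1.59 ± 0.92 and did not pass (adjusted p = 0.262). It passed only with inguinal SVF replicate 3 left out of the fit as well (1.59 ± 0.54, adjusted p = 0.0478). The coding probe of Klf15 gave 0.45, 1.68 and 0.61, each ± 0.71, and did not pass (adjusted p = 0.72, 0.126 and 0.576).

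Brown SVF replicate 2 had the highest Cebpa and Klf15 levels of the 9 SVF arrays and also the highest summed level of the 8 mature adipocyte markers among them (10.4, against 8.36 to 9.38 on the other 8 SVF arrays and 10.5 to 11.8 on the adipocyte arrays). On inguinal SVF replicate 3 the marker sum, Cebpa and Klf15 were each the lowest of the 18 arrays. The share of carried-over adipocyte RNA in these values was not tested.

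**Figure D3:**
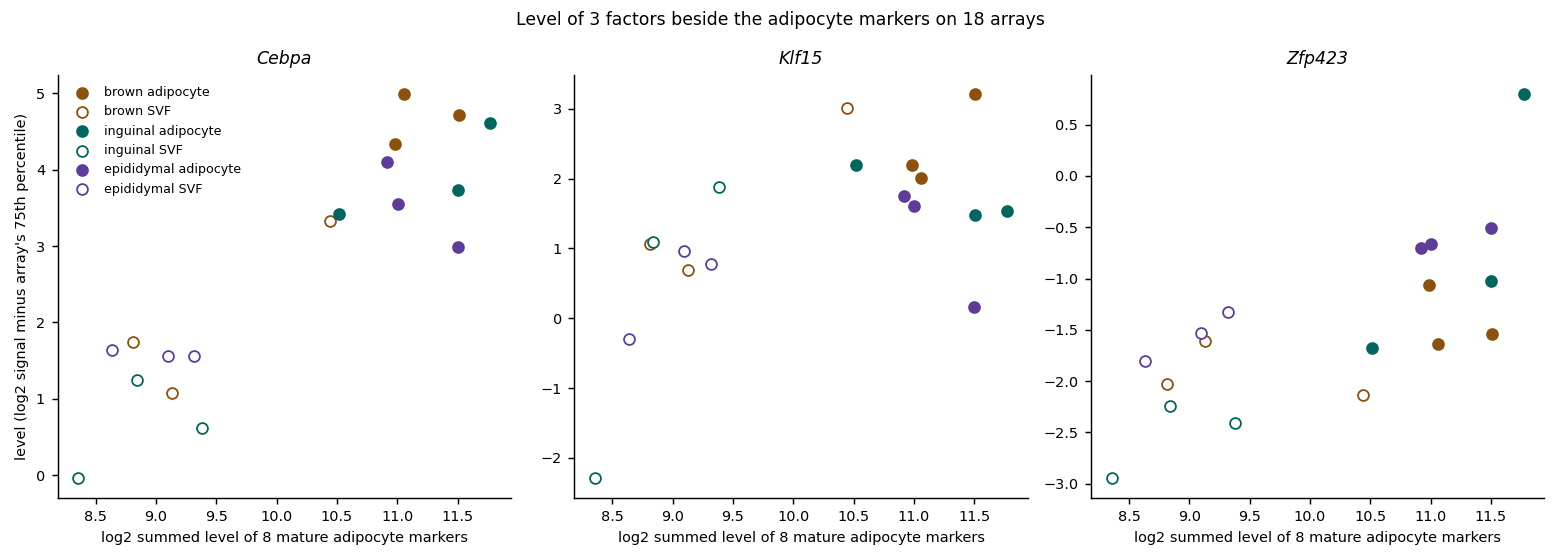
Level of Cebpa, Klf15 and Zfp423 (log2 processed signal minus the array's 75th percentile) on each of 18 arrays against the log2 summed level of 8 mature adipocyte markers on the same array, adipocyte arrays filled and SVF arrays open. The open brown point at a marker sum of 10.4 is brown SVF replicate 2, which has Cebpa at 3.32 and Klf15 at 3.00, and the open inguinal point at 8.36 is inguinal SVF replicate 3.

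Klf4, a factor of stem cells and of the first hours of differentiation, had 6.36, 6.96 and 6.23 in brown adipocytes, against 7.15, 6.55 and 6.50 in brown SVF. Inguinal adipocytes had 6.79, 6.01 and 5.86, against 6.34, 6.65 and 5.36 in SVF. In epididymal fat it had 5.77, 5.77 and 5.74 in adipocytes, against 6.39, 6.21 and 6.68 in SVF. Only in epididymal fat did the fractions not overlap, with adipocytes at the lower level, and there the difference was -0.67 ± 0.34 (adjusted p = 0.168). It passed with the 6 epididymal arrays fitted alone (adjusted p = 0.048). In brown and inguinal fat it was -0.22 and 0.10, each ± 0.34 (adjusted p = 0.709 and 0.868).

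Ebf1, a factor of B cells and of fat progenitors, had 1.12, 1.21 and 1.02 in brown adipocytes, against 1.43, 1.11 and 1.09 in brown SVF. In inguinal fat it had -0.01, 0.39 and 0.73 in adipocytes, against 1.29, 1.19 and 0.67 in SVF. Epididymal adipocytes had 0.89, 1.47 and 0.73, against 0.90, 0.53 and 0.72 in SVF. Inguinal adipocytes had the lowest mean of the 6 groups, overlapping the inguinal SVF through replicate 3 of each. The differences were -0.09, -0.68 and 0.31, each ± 0.26 (adjusted p = 0.841, 0.0936 and 0.402). Without inguinal SVF replicate 3, Ebf1 in inguinal fat fell by 0.87 ± 0.27 on the log2 scale (adjusted p = 0.0398), again on SVF replicates 1 and 2 alone. The B cell markers, whose cells are known to express Ebf1, summed to -0.56 to 4.92 in inguinal adipocytes and 1.10 to 7.06 in inguinal SVF, and their part in the Ebf1 values was not tested. On inguinal SVF replicate 3, where that sum was 7.06, Ebf1 was at 0.67, its lowest SVF value in that depot. The other 9 members had their lowest value of all arrays on that array. The lowest Ebf1 value of all arrays was -0.01, on inguinal adipocyte replicate 1. The probes of Ebf1 lie at chr11:44848286-44848345 and, for the dimmer one made from a cDNA, chr11:44492539-44492598 (mm8, + strand), and the dimmer one gave -0.04, -0.94 and 0.33, each ± 0.66, none of which passed (adjusted p = 0.977, 0.36 and 0.76).

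Ebf2, the EBF tied to the brown fat program in mouse, had 1.93, 1.51 and 2.67 in brown adipocytes, against 1.36, 1.91 and 2.38 in brown SVF. In inguinal fat it had 1.33, 1.60 and 1.50 in adipocytes, against 3.12, 2.69 and 0.83 in SVF. Epididymal adipocytes had 2.05, 1.89 and 1.36, against 1.70, 1.82 and 2.89 in SVF. All fractions overlapped, and in inguinal fat only SVF replicate 3 lay below the adipocytes. The differences were 0.15, -0.74 and -0.37, each ± 0.51 (adjusted p = 0.867, 0.352 and 0.637). Without inguinal SVF replicate 3, Ebf2 fell by 1.43 ± 0.42 on the log2 scale in inguinal fat (adjusted p = 0.0331). Replicate 1, which goes against its label, had the highest of the values that remain, and without it in place of replicate 3 the difference was -0.29 (adjusted p = 0.75).

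Ebf3, the third EBF on this list, had 3.06, 3.31 and 3.31 in brown adipocytes, against 3.30, 2.82 and 3.11 in brown SVF. The other groups ran from 2.29 to 2.89 in inguinal adipocytes, 1.52 to 2.81 in inguinal SVF, 2.54 to 2.82 in epididymal adipocytes and 2.20 to 2.95 in epididymal SVF. The fraction differences were 0.15, 0.36 and 0.03, each ± 0.31 (adjusted p = 0.77, 0.455 and 0.958). The dimmer Ebf3 probe, well above background on 16 of 18 arrays, gave 1.00 ± 0.42 in brown fat (adjusted p = 0.117), 0.21 ± 0.42 in inguinal fat (adjusted p = 0.77) and 1.33 ± 0.42 in epididymal fat (adjusted p = 0.0332), so the probes disagreed on epididymal fat.

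Zfp423, the preadipocyte factor, had -1.02, -1.68 and 0.80 in inguinal adipocytes, against -2.41, -2.24 and -2.95 in inguinal SVF. In epididymal fat it had -0.67, -0.70 and -0.50 in adipocytes, against -1.33, -1.53 and -1.80 in SVF. Brown adipocytes had -1.54, -1.06 and -1.64, against -1.61, -2.13 and -2.03 in SVF. The fractions were apart in the inguinal and epididymal depots and overlapped in brown fat. In inguinal fat Zfp423 rose by 1.90 ± 0.45 (3.73-fold, limma adjusted p = 0.0139). This call held under 31 of 32 alternatives and was lost with the 6 inguinal arrays fitted alone (adjusted p = 0.19). Inguinal adipocyte replicate 3 carried much of it, the difference being 1.18 ± 0.30 without that array (adjusted p = 0.035). Without inguinal SVF replicate 1 it was 1.96 (adjusted p = 0.0296). The difference was 0.93 ± 0.45 in epididymal fat (adjusted p = 0.148) and 0.51 ± 0.45 in brown fat (adjusted p = 0.475), and without inguinal adipocyte replicate 3 in the fit the epididymal value passed (adjusted p = 0.0195). The other Zfp423 probe, at chr8:90552305-90552364 (mm8, - strand), gave 1.24 ± 0.42 in inguinal (adjusted p = 0.0615), 1.27 ± 0.42 in epididymal (adjusted p = 0.0412) and -0.32 ± 0.42 in brown fat (adjusted p = 0.658). The summed progenitor and fibroblast markers were at 6.62 to 8.63 in inguinal adipocytes against 8.50 to 9.75 in inguinal SVF. These overlapped through adipocyte replicate 1 and SVF replicate 3. In epididymal fat the sums were apart, at 7.57 to 8.17 in adipocytes against 8.94 to 9.41 in SVF. The part of these cells in the Zfp423 values was not tested.

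**Figure D4:**
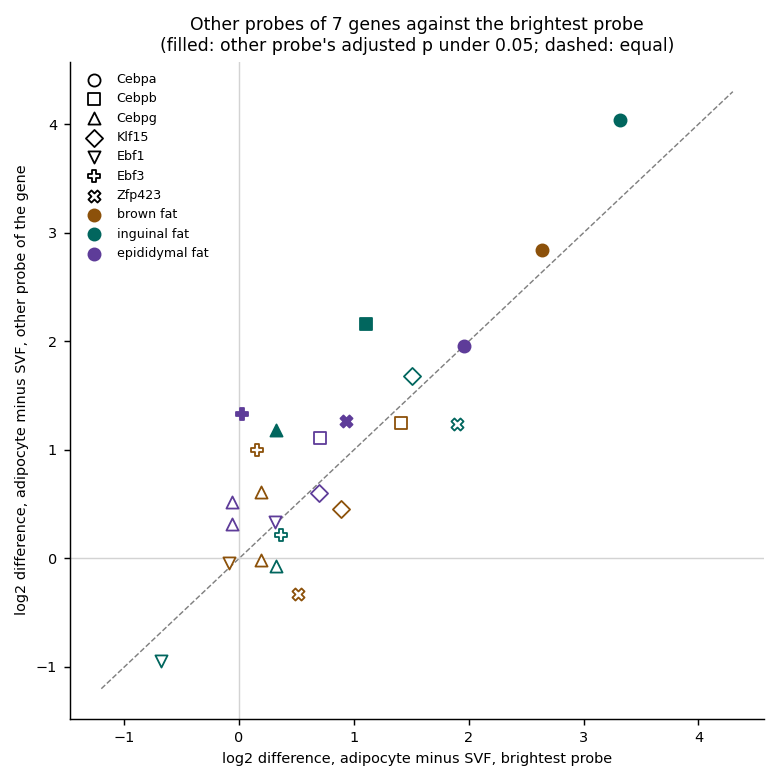
Adipocyte minus SVF difference (log2) of each of the 8 dimmer probes of 7 genes against that of the same gene's brightest probe, by depot (colour) and gene (shape), filled where the dimmer probe's adjusted p was under 0.05. The 3 Cebpa points are filled and lie on or above the line of equal values, and the filled points of Cebpb and Cebpg in inguinal fat and of Ebf3 and Zfp423 in epididymal fat lie above it.

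Whether the fraction difference itself differed between depots was tested as an interaction, and none of the 30 member tests passed, against 0.864% of all genes for brown minus inguinal, 2.02% for brown minus epididymal and 0.0781% for inguinal minus epididymal fat. At an unadjusted p under 0.05, limma gave 1, 0 and 1 members. Zfp423 had an interaction of -1.39 ± 0.64 for brown minus inguinal fat (adjusted p = 0.358). Cebpa had 1.36 ± 0.71 for inguinal minus epididymal fat (adjusted p = 0.477), and Ebf1 -0.99 ± 0.37 there (adjusted p = 0.333).

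Among adipocytes, the members' means ran from brown through inguinal to epididymal fat for Cebpa (4.68 ± 0.33, 3.92 ± 0.62 and 3.55 ± 0.55, SD, n = 3 each), Cebpb (6.02 ± 0.43, 5.26 ± 0.53 and 4.69 ± 0.39), Klf15 (2.47 ± 0.65, 1.73 ± 0.40 and 1.17 ± 0.88) and Klf4 (6.52 ± 0.39, 6.22 ± 0.50 and 5.76 ± 0.02). Neighbours in these orders overlapped, except that inguinal and epididymal adipocytes were apart for Klf4. Brown and epididymal adipocytes did not overlap for 6 of the 10 members, Cebpa, Cebpb, Klf15, Klf4, Ebf3 and Zfp423, the last with the lower level in brown fat. Of all genes 51.5% did not overlap here either, so this share is near the background. Of the members 1 was called, against 28.8% of all genes. Only Cebpb passed, at 1.33 ± 0.47 (2.51-fold higher in brown adipocytes, limma adjusted p = 0.0459). This call was lost under 22 of 32 alternatives, with adjusted p-values from 0.012 to 0.247 and a difference of 0.77 after quantile normalization. Without epididymal adipocyte replicate 3, the array with high Ucp1, it was 1.51 (adjusted p = 0.0669), and without replicate 1 it was 1.13 (adjusted p = 0.152). Cebpa differed by 1.14 ± 0.50 (adjusted p = 0.1), Klf4 by 0.76 ± 0.34 (adjusted p = 0.109), Zfp423 by -0.79 ± 0.45 (adjusted p = 0.203), Ebf3 by 0.53 ± 0.31 (adjusted p = 0.207) and Klf15 by 1.30 ± 0.87 (adjusted p = 0.274). The dimmer Zfp423 probe passed in the same direction (-1.79 ± 0.42, adjusted p = 0.00743). The brown against inguinal adipocyte comparison called no member, against 12.2% of all genes (1 member at an unadjusted p under 0.05), and its lowest adjusted p was that of Ebf1 (0.75 ± 0.26, adjusted p = 0.0738, groups apart). The dimmer Ebf3 probe passed (1.75 ± 0.42, adjusted p = 0.0159). On inguinal adipocyte replicate 1 this probe, at -5.56, was not well above background, so the size of that difference is uncertain. The median of all genes lay at 0.15 in that comparison and that of the members at 0.59. Inguinal against epididymal adipocytes called none either, against 7.64% of all genes (1 at an unadjusted p under 0.05), where Ebf1 had -0.66 ± 0.26 (adjusted p = 0.129) with inguinal arrays at the lower level and no overlap. Groups did not overlap for 32.3% of all genes between brown and inguinal adipocytes and for 27.2% between inguinal and epididymal ones, and for 2 members in each. These comparisons share their adipocyte arrays.

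Among the SVFs no member passed, against 2.27%, 1.78% and 0.297% of all genes for brown minus inguinal, brown minus epididymal and inguinal minus epididymal fat, and 2, 0 and 1 members had an unadjusted p under 0.05. Cebpa had 1.08, 3.32 and 1.74 in brown SVF, against 0.61, 1.24 and -0.04 in inguinal SVF, a difference of 1.44 ± 0.50 (adjusted p = 0.153). Epididymal SVF held Cebpa within 1.56 to 1.64, above all inguinal SVF arrays (inguinal minus epididymal -0.98 ± 0.50, adjusted p = 0.575). Ebf3 had 3.30, 2.82 and 3.11 in brown SVF, against 2.40, 2.81 and 1.52 in inguinal SVF, without overlap by a narrow margin (0.83 ± 0.31, adjusted p = 0.182), and passed with the slide as a block (1.49, adjusted p = 0.0493). These groups shared 1 slide, with 1 array each, where the difference was 1.59. The inguinal array on it was SVF replicate 3, and without that array, with no block, the Ebf3 difference was 0.47. Zfp423 was also apart, at -1.61 to -2.13 in brown and -2.24 to -2.95 in inguinal SVF (0.61 ± 0.45, adjusted p = 0.535). Of all genes 18.5% did not overlap between brown and inguinal SVF, 23.3% between brown and epididymal SVF and 11.7% between inguinal and epididymal SVF. In each, 2 members did not. Inguinal and epididymal SVF shared slides, and there Cebpb, Cebpd and Ebf2 had 0.85, 0.80 and 1.14 on the slide with replicates 1 and 2 but -1.19, -1.88 and -2.05 on the slide with replicate 3, so the slides gave opposite signs. With all arrays Cebpb had 0.17, Cebpd -0.10 and Ebf2 0.08. Without inguinal SVF replicate 1 these were -0.46, -0.58 and -0.37, and without replicate 3 they were 0.76, 0.68 and 0.77, so the sign depends on both arrays.

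The genes known to be switched on by C/EBP alpha and PPAR gamma in fat cells were almost all higher in the adipocyte fraction. They are genes of mature fat cells, so a rise in that fraction follows from how it was taken. The part of Cebpa in their levels was not tested. Of 17 tested, 14 rose in brown, 16 in inguinal and 16 in epididymal adipocytes and none fell, against 12.7%, 9.07% and 18% of all genes higher, with list medians of 2.80, 4.08 and 2.62. 8 of the 18 genes on that list are also the mature adipocyte markers. Among them the lipid droplet gene Plin1 rose by 3.68 ± 0.78 in brown (adjusted p = 0.00371) and 6.04 ± 0.78 in inguinal fat (adjusted p = 0.000484). The glycerol phosphate enzyme gene Gpd1 rose by 6.10 ± 0.73 in inguinal fat (adjusted p = 0.000293), and the fatty acid desaturase gene Scd1 by 4.55 ± 0.44 in epididymal fat (adjusted p = 4.25e-05). The leptin gene Lep rose by 6.12 ± 0.85 in epididymal fat (adjusted p = 0.00073). The counts were 15 without brown SVF replicate 2, 15 without inguinal SVF replicate 1, 14 without inguinal SVF replicate 3, and 11 without either epididymal adipocyte replicate 1 or replicate 3, when 9.18% and 11.4% of all genes were higher in epididymal adipocytes.

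Of 10 genes that respond to Klf15 or glucocorticoids, 3 rose and 1 fell in brown adipocytes, 4 rose and 1 fell in inguinal and 3 rose in epididymal ones, while Klf15 itself did not pass. The shares of all genes higher were 12.7%, 9.07% and 18%, and lower 8.35%, 4.87% and 7.05%. Pdk4, a brake on glucose oxidation, rose by 3.28 ± 0.59, 3.78 ± 0.59 and 3.12 ± 0.59 by depot in that order (adjusted p = 0.00127, 0.00126 and 0.00272). Prodh, which degrades proline and is a Klf15 target in mouse, rose by 2.46, 2.51 and 2.56, each ± 0.73 (adjusted p = 0.0263, 0.0351 and 0.0204). The inguinal Prodh call was lost without inguinal SVF replicate 3 (adjusted p = 0.0855) and the epididymal one without adipocyte replicate 1 or 3 (adjusted p = 0.0778 and 0.0532). The glucocorticoid-induced zipper gene Tsc22d3 fell by 0.86 ± 0.27 in brown and 1.36 ± 0.27 in inguinal adipocytes on the log2 scale (adjusted p = 0.0315 and 0.00457), the brown call being lost without brown SVF replicate 2 (adjusted p = 0.065). Without brown SVF replicate 2, 4 of these genes rose in brown adipocytes and 0 fell. The number that rose was 5 without inguinal SVF replicate 1, 2 without inguinal SVF replicate 3, and 1 without epididymal adipocyte replicate 1 or 3.

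Other activators of fat cell formation rose in part: 3 of 13 in brown, 7 of 13 in inguinal and 3 of 13 in epididymal adipocytes, with none that fell. Against the same shares of all genes higher (12.7%, 9.07% and 18%), the epididymal count is near the background. It was 0 without epididymal adipocyte replicate 1 and 1 without replicate 3, and the inguinal count was 7 without inguinal SVF replicate 1 and 5 without replicate 3. The brown count was 4 without brown SVF replicate 2. The carbohydrate-sensing factor gene Mlxipl rose by 3.51, 4.20 and 3.05, each ± 0.78 (adjusted p = 0.00489, 0.00341 and 0.0116), the epididymal call being lost without adipocyte replicate 1 (adjusted p = 0.055). The lipogenic factor gene Srebf1 rose by 1.63 ± 0.42 in brown and 2.11 ± 0.42 in inguinal fat (adjusted p = 0.012 and 0.00516). Stat5a, a signal transducer of growth hormone, rose by 1.68 ± 0.33 in brown and 0.96 ± 0.33 in epididymal fat (adjusted p = 0.00242 and 0.0447), and in epididymal fat not without adipocyte replicate 1 or 3 (adjusted p = 0.101 and 0.106). Of 14 repressors of fat cell formation 2, 3 and 3 fell in brown, inguinal and epididymal adipocytes and none rose, against 8.35%, 4.87% and 7.05% of all genes lower. The epididymal count was 1 without adipocyte replicate 1 or 3, and the inguinal one 2 without SVF replicate 1 and 4 without SVF replicate 3. The corepressor gene Runx1t1 fell by 3.06 ± 0.48 in brown and by 1.51 ± 0.48 in inguinal fat on the log2 scale (adjusted p = 0.000549 and 0.0488), the inguinal call being lost without inguinal SVF replicate 1 (adjusted p = 0.154). The forkhead gene Foxc2 was at least 4.40-fold lower in brown adipocytes, where no array had it well above background (adjusted p = 2.13e-05), the bound being set by the lowest signal well above background, and it fell by 1.09 ± 0.28 on the log2 scale in epididymal ones (adjusted p = 0.0108).

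The relatives of the members showed calls that differed from gene to gene. Of 7 tested genes with a C/EBP name or known as bZIP partners none passed between the fractions in any depot, and 1 did in inguinal fat without SVF replicate 1. Between depots 3 of the 7 were higher in brown than in epididymal adipocytes, among them Nfil3 (1.41, adjusted p = 0.0222) and Ddit3 (1.25, adjusted p = 0.0249). Of all genes 28.8% were called there in either direction. Cebpz, which is on this list by its name, was the 1 of the 7 called between brown and inguinal adipocytes. It was higher in brown ones (1.05, adjusted p = 0.0173), against 12.2% of all genes called. Of 14 other KLF genes 3 fell in brown, 1 rose and 1 fell in inguinal, and 2 rose and 2 fell in epididymal adipocytes, which is near the 21.1%, 13.9% and 25% of all genes called. Without inguinal SVF replicate 3, 1 rose and 2 fell in inguinal fat. In epididymal fat 1 rose and 2 fell without adipocyte replicate 1, and 1 rose and 1 fell without replicate 3. Klf14, a regulator of lipid genes, stood above background on none of the SVF arrays of the white depots. It was at least 3.26-fold higher in inguinal and at least 19.5-fold higher in epididymal adipocytes (adjusted p = 0.00532 and 2.91e-05). Klf12 fell by 1.99 ± 0.36 in brown, 1.80 ± 0.36 in inguinal and 1.66 ± 0.36 in epididymal adipocytes on the log2 scale (adjusted p = 0.00149, 0.00572 and 0.00554), being well above background on 2 of 3 brown adipocyte arrays. Klf5, which acts with Cebpb and Cebpd in early differentiation, fell by 1.45 ± 0.44 on the log2 scale in epididymal fat (adjusted p = 0.0249, lost without adipocyte replicate 3 at 0.0733) and by 2.06 ± 0.44 in brown fat (adjusted p = 0.00369), where it was well above background on 1 of 3 adipocyte arrays. Of 11 EBF and Zfp423 partners, Zfp521, the relative of Zfp423 that blocks Ebf1, fell by 1.74 ± 0.40 in brown and 1.79 ± 0.40 in epididymal adipocytes on the log2 scale (adjusted p = 0.00621 and 0.00603). Ebf4 rose by 2.15 ± 0.52 in epididymal ones (adjusted p = 0.00895), and none of the 11 passed in inguinal fat with all arrays. So 1 of the list fell in brown, and 1 rose and 1 fell in epididymal adipocytes, against 21.1% and 25% of all genes called. In inguinal fat 1 rose without SVF replicate 1 and 1 fell without SVF replicate 3. In brown fat 2 fell without brown SVF replicate 2. Prdm16, the partner of Ebf2 and C/EBP beta in brown fat formation, was higher in brown than in epididymal adipocytes (1.58 ± 0.35, adjusted p = 0.00472) and higher in brown than in inguinal SVF (1.57 ± 0.35, adjusted p = 0.027). Of the 13 immediate early genes none passed in brown, 3 rose in inguinal and 1 rose in epididymal adipocytes, and none fell, against 12.7%, 9.07% and 18% of all genes higher. The inguinal count was 8 without SVF replicate 1 and 0 without SVF replicate 3, and the epididymal one 0 without adipocyte replicate 1 or 3.

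**Figure D5:**
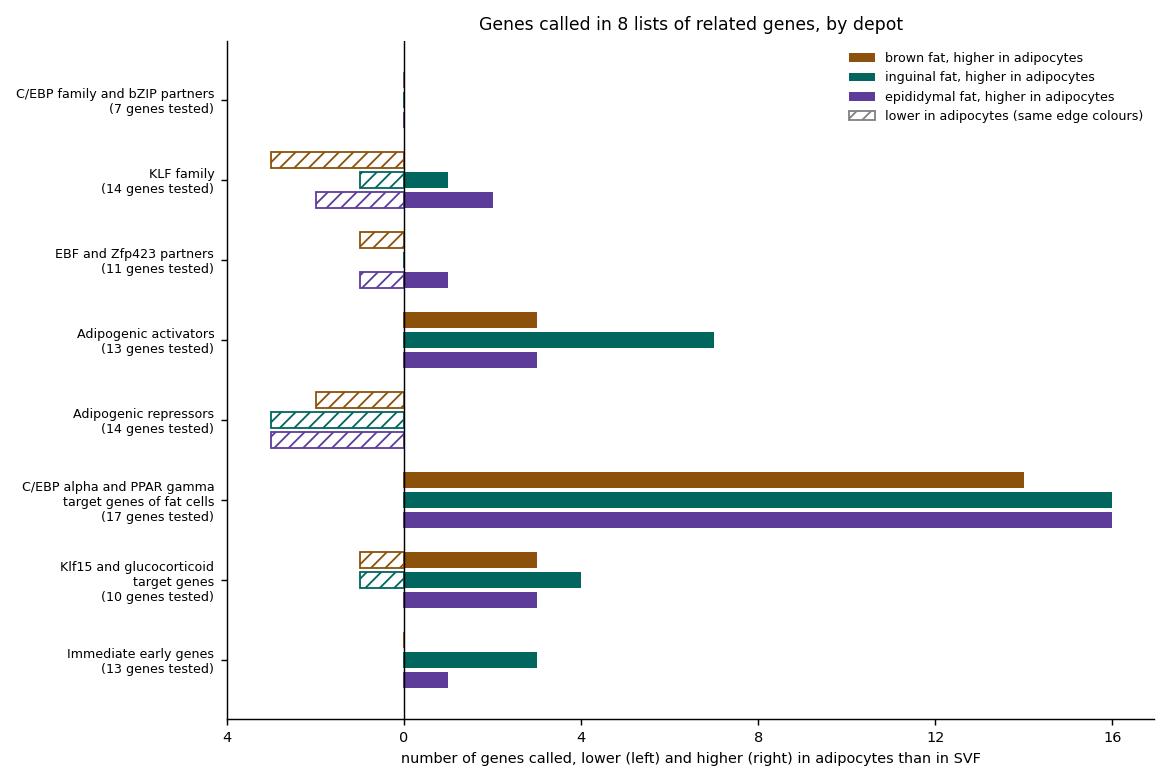
Number of genes called in adipocytes against SVF in 8 lists of genes related to the members, in brown, inguinal and epididymal fat, with filled bars to the right for genes higher and hatched bars to the left for genes lower in adipocytes. The list of C/EBP alpha and PPAR gamma target genes has 14, 16 and 16 genes to the right and none to the left. The list of genes with a C/EBP name and bZIP partners has none on either side.

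The genes whose level ran most like a member's over the 18 arrays were found by Pearson's correlation among 14940 genes, as a description of arrays that share their depots, fractions and software. For Cebpa, Optn is given (r = 0.984), with group means of 1.94, 1.44 and 1.14 in brown, inguinal and epididymal adipocytes against -0.55, -1.87 and -1.30 in their SVFs. For Klf15 they were Mettl7a1 (r = 0.894) and Mettl7a2 (r = 0.877), related genes whose probes may share signal. The others were Ddo and Cgnl1 for Cebpb, Errfi1 and Tbx18 for Cebpd, Tsnax and Fut8 for Cebpg, Ubqln2 and Phf2 for Ebf1, Extl2 and Pir for Ebf2, Arhgef28 and Fam217b for Ebf3, Sec14l1 and Mapk8ip1 for Klf4, and Rsc1a1 and Sh3tc1 for Zfp423, with r between 0.794 and 0.928.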

How the data were processed

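RNA from 18 samples was hybridised to 1-colour Agilent mouse arrays. The deposited intensities are Agilent Feature Extraction processed signals, made by software 9.5.3.1 or 10.5.1.1 per the file headers. The deposited series matrix holds log2 values of 31161 probes whose normalization is not given in the sources used here, with column medians from 8.12 to 8.13. All 18 of its columns ranked probes most like an array of their own group, and 4 most like the array of their own label, so it served as an alternative.

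Control spots and outlier flags were left out (133 probe values missing), log2 signals were set relative to each array's 75th percentile, and spots of a probe were averaged. Probes called well above background throughout any 1 group of 3 arrays were kept (28595 of 41174), and the brightest kept probe stood for its gene. Names came from the RefSeq GRCm38.p6 table by accession for 24375 probes, symbol for 6301 and synonym for 2426, and 8072 kept the array's name. Group means of all 18 arrays were fitted with limma 3.58.1 in R 4.3.3 (lmFit and eBayes, two-sided), with Benjamini-Hochberg adjustment over 19217 genes and a threshold of 0.05. The code was tested on simulated data. Precision is limited by 3 arrays per group.

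All 10 members were named with every probe of theirs, and of the 8 related lists up to 3 called genes per fraction comparison and direction, by size of difference (up to 2 between depots). For likeness, the 2 best-correlated genes were taken, of which 1 is not reported here. The members and lists were chosen with earlier results of these data known. Replicate numbers were taken to pair samples where every same-numbered pair's deviations correlated above 0.1. Among the fraction comparisons that held in epididymal fat (r = 0.42, 0.48 and 0.14), and not in brown (-0.12, -0.05 and 0.39) or inguinal fat (-0.14, 0.05 and -0.23). Brown adipocytes and epididymal SVF met the rule too (0.16, 0.17 and 0.51), so it does not by itself show a pairing. Alternatives covered background correction, normalization, the deposited matrix, the probe rule, the filter, the arrays fitted, blocks for slide, scan day and replicate, and each array left out.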

Additional observations from a re-analysis of the deposited data

How the results depend on the processing

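Of 1680 member differences recomputed under settings that changed the processing or left out a pair of arrays, 1648 stayed on the same side of the threshold, 17 lost and 15 gained a call, and none that was called turned its direction. In 61 the sign changed without a call in either fit. Leaving out 1 array at a time kept 2125 of 2160 on the same side, with 26 calls lost and 9 gained. The number of members called, with 1 array left out, ran from 1 to 2 in brown, 2 to 5 in inguinal and 1 to 2 in epididymal fat, 0 to 1 for brown against inguinal adipocytes and 0 to 2 for brown against epididymal adipocytes. The inguinal count of 5 came without inguinal SVF replicate 3, when 8.58% of all genes were higher and 7.5% lower in inguinal adipocytes. The count of 2 for brown against epididymal adipocytes and in epididymal fat came without inguinal adipocyte replicate 3. Calls over all genes shifted with these settings as well, and their ranges are given at the end of this section. Without inguinal SVF replicate 3 or inguinal adipocyte replicate 3, the member called between brown and inguinal adipocytes was Ebf1.

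The brown fraction count was 1, with Cebpb lost, under quantile normalization, the deposited matrix, the mean of probes, and slide, scan day or replicate blocks. With only the arrays compared, the count was 3 in brown fat (Cebpd added), 1 in inguinal fat, 3 in epididymal fat (Cebpa, Klf4 and Zfp423) and 3 for brown against epididymal adipocytes (Cebpb, Cebpa and Zfp423). Without brown SVF replicate 2 and inguinal SVF replicate 3, a choice made after seeing the data, it was 3 in brown fat (Klf15 added), 5 in inguinal fat and 2 for brown against epididymal adipocytes. Brown against epididymal adipocytes had 0 under normexp correction, quantile normalization, the deposited matrix, no filter on dim probes, and slide, scan day or replicate blocks. The mean of probes, which takes in the dimmer Ebf3 probe, called 1 member (Ebf3) between brown and inguinal adipocytes, and the slide block 1 (Ebf3) between brown and inguinal SVF.

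With the replicate block, where the epididymal numbers were taken to pair the samples, Cebpa stayed called in epididymal fat (1.96, adjusted p = 0.0132, and 0.0157 with the block in those arrays alone), and the count stayed at 1. In the other comparisons the block moved the brown fraction count to 1 and that of brown against epididymal adipocytes to 0.

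Over all genes, with the processing settings and pairs of arrays left out, counts of calls ran from 3265 to 7534 in brown (4051 as reported), 250 to 3969 in inguinal (2678) and 2518 to 6448 in epididymal fat (4807). They ran from 1299 to 3176 (2345), 3125 to 7201 (5530) and 82 to 2298 (1469) between adipocytes of brown and inguinal, brown and epididymal, and inguinal and epididymal fat, from 2 to 726 (436), 90 to 614 (342) and 0 to 193 (57) between their SVFs, and from 70 to 214 (166), 194 to 1319 (388) and 0 to 220 (15) for the interactions. With 1 array left out they ran, in the same order, from 2475 to 4731, 1009 to 3091 and 2316 to 5774 for the fractions, 746 to 3624, 3208 to 6520 and 117 to 2539 for adipocytes, 175 to 782, 181 to 524 and 21 to 228 for SVFs, and 83 to 366, 176 to 1290 and 4 to 632 for the interactions. The split of higher against lower calls was 2447 to 1604 in brown fat, but 1950 to 2005 under quantile normalization and 3501 to 1080 under normexp. In epididymal fat it was 3453 to 1354, but 2919 to 2604 under quantile normalization and 2965 to 2528 in the deposited matrix. Between brown and inguinal adipocytes it was 1224 to 1121, but 967 to 1351 under quantile normalization, and between brown and epididymal adipocytes 2372 to 3158, but 1913 to 1212 under normexp. The cause of these shifts was not tested. Normexp on mean signals was not run, since that column is missing from 12 of the 18 files used here, and median signals were used.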
